A study of Mus musculus with 8 samples.

Results

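miR-342 is a microRNA (miRNA) hairpin whose 5p and 3p arms were both counted in small RNA libraries of mouse splenic CD8+ T cells. Its 2 mature arms, listed as mmu-miR-342-5p and mmu-miR-342-3p, were taken by name from a table of 1978 mature miRNAs on 1234 precursors, where the hairpin is listed once. The arms were chosen by their counts, namely their levels and 5p over 3p ratio in neonatal and adult libraries, so the levels and the arm ratio are a description and carry no test. The study compared CD8+ T cells of neonatal C57BL/6 mice aged 5 to 7 days (4 libraries) with those of adult C57BL/6 mice aged 12 weeks (4 libraries). All cells came from spleen by magnetic enrichment on CD8a beads, and no genetic change or treatment is given for either group. The labels do not say whether libraries stem from separate animals or pools, so the spread between libraries may be technical.

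A miRNA hairpin is cut into a short duplex, and usually the strand that is kept by an Argonaute protein, the guide, represses messenger RNAs that pair with its seed, while the other strand is degraded. The ratio of the arms therefore reports on strand choice and strand stability as well as on ligation preferences of the library kit. miR-342-3p is known as an abundant miRNA of lymphocytes, and miR-342-5p has been linked in mouse to inflammatory macrophages of atherosclerotic lesions. The hairpin lies inside Evl, which encodes an Ena/VASP-family protein of the actin cytoskeleton.

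The hairpin sits on the plus strand of chromosome 12 (108658620 to 108658718, GRCm38.p6, the assembly of mm10). It falls in an intron of all 5 GENCODE transcripts of Evl that span it, out of 7 transcripts of this protein-coding gene, and on the same strand. The intron is 20189 bases long, and the hairpin starts 5520 bases after the exon before it. The RefSeq sequences are shown because the arms carry different seeds (bases 2 to 8, in capitals) and so address different target sites. In the hairpin the capitals mark the arms.
miR-342-5p: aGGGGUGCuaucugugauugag
miR-342-3p: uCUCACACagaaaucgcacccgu
mir-342 hairpin: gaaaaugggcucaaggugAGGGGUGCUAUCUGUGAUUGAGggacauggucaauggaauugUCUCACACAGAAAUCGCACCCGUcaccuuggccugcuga

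No other mature mouse miRNA in the RefSeq table has the 7-base seed of either arm. Over bases 2 to 7 alone, miR-342-5p shares its letters with miR-6931-5p and miR-6943-5p, of which miR-6943-5p had 0 to 6 counts per library. In the minimum free energy fold of the hairpin (-46.8 kcal/mol), 17 of the 22 bases of the 5p arm and 17 of the 23 bases of the 3p arm pair with each other. Of the 7 seed bases, 6 are paired in the 5p arm and 7 in the 3p arm. The arms differ little in base composition, with a GC content of 50.0% for 5p and 52.2% for 3p, against a median of 47.8% over 314 tested miRNAs with a sequence.

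The deposited counts of the 5p arm were higher in every neonatal library than in any adult library, although neonatal libraries were not deeper. The same held for 33.1% of the 375 miRNAs past the count filter, and 39.2% had deposited counts that did not overlap in either direction, so nothing is read from it. miR-342-5p had 4356, 4536, 4288 and 3773 counts in neonatal libraries 1 to 4, against 1827, 1462, 3120 and 2068 counts in adult libraries 1 to 4. miR-342-3p had 6280, 7256, 6698 and 7564 counts in the neonatal libraries, against 6985, 4932, 10679 and 8151 counts in the adult libraries. The 3p arm was thus the more abundant arm in all 8 libraries, and its raw counts overlapped between the ages. Both arms lay far above the limit that a count of 0 allows (3 counts, which by library totals equal 1.15 to 2.34 depth-scaled counts, CPM). Neonatal libraries held 1454422 to 2416060 counts in total, against 1281033 to 2606637 in adult libraries.

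As a share of all miRNA counts of a library, miR-342-5p took 0.228% ± 0.0596 in neonatal and 0.107% ± 0.0297 in adult libraries (SD, n = 4 each). On this scale the lowest neonatal library (0.156%) lay above the highest adult one (0.143%), as for 45.9% of the 375 miRNAs, and 62.4% had groups that did not overlap in either direction. miR-342-3p took 0.367% ± 0.0511 of neonatal and 0.390% ± 0.118 of adult counts, with overlapping groups.

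The picture by arm changed once libraries were brought to a common level by TMM, a trimmed mean of ratios over miRNAs, which gave factors of 1.16 to 1.3 for neonatal libraries, against 0.788 to 0.812 for adult ones. In CPM after TMM, miR-342-3p stood at 3351, 2768, 2918 and 2705 CPM in neonatal libraries 1 to 4, against 6783, 3452, 5077 and 4090 CPM in adult libraries 1 to 4. All neonatal libraries were now below all adult ones, although neonatal library 1 and adult library 2 were close. Of the 375 miRNAs, 57.3% had groups that did not overlap in CPM (30.9% with neonatal libraries lower), so nothing is read from this separation. The log2 fold change of miR-342-3p was -0.72 ± 0.19 (SE, edgeR fit, neonatal over adult). In such bulk libraries fewer cells with a miRNA and less of it per cell cannot be told apart.

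miR-342-5p stood at 2324, 1730, 1868 and 1349 CPM in neonatal libraries 1 to 4, against 1774, 1023, 1483 and 1038 CPM in adult libraries 1 to 4. The groups overlapped after TMM, since neonatal library 4 was below adult libraries 1 and 3. Its log2 fold change was 0.45 ± 0.21 (SE, edgeR fit). Scaling by library totals in place of TMM moved the mean log2 fold change over all miRNAs up by 0.626, and with it miR-342-5p to 1.10 ± 0.23 and miR-342-3p to -0.09 ± 0.20. Which arm carried the age difference thus depended on the scaling, while 5p stayed above 0 and 3p below 0 under both. Over the 22 alternatives 5p lay between 0.31 and 1.10 and 3p between -0.88 and -0.09. Both arms come from the same libraries, so a change of scaling moves them about alike and cannot alter their order.

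**Figure D1:**
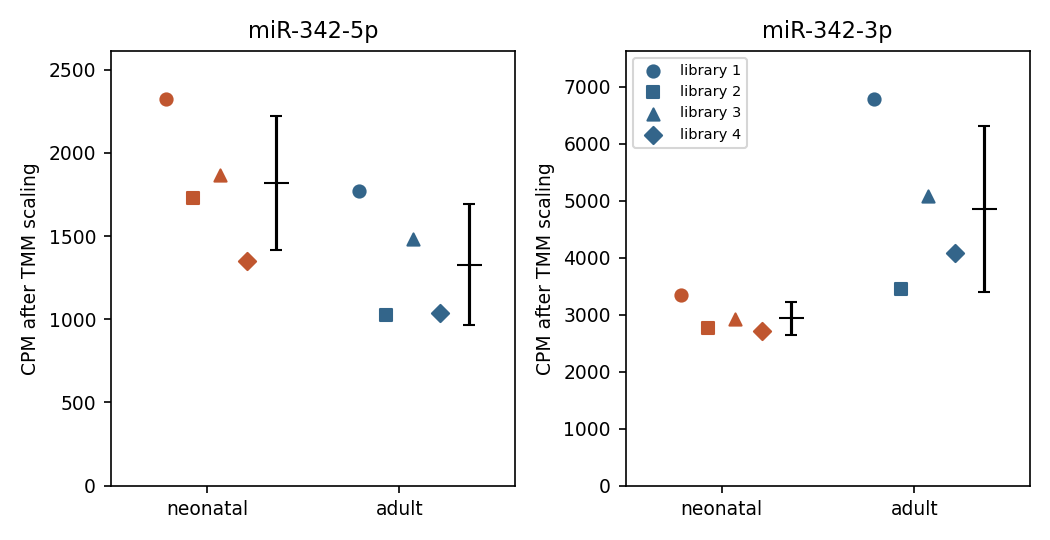
Level of miR-342-5p (left) and miR-342-3p (right) in depth-scaled counts (CPM) after TMM scaling, with 1 symbol per library and the mean ± SD of 4 libraries beside each group. The 3p arm is at 2705 to 3351 CPM in neonatal libraries against 3452 to 6783 CPM in adult ones, while the 5p arm overlaps between the ages, and libraries 1 and 3 are above 2 and 4 in each group.

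Both arms also varied with the library number. miR-342-5p averaged 2096 CPM in neonatal libraries 1 and 3 and 1540 CPM in neonatal libraries 2 and 4, and it averaged 1629 and 1031 CPM in the corresponding adult libraries. miR-342-3p averaged 3135 CPM in neonatal libraries 1 and 3 and 2736 CPM in neonatal libraries 2 and 4, and 5930 and 3771 CPM in the corresponding adult libraries. Libraries 1 and 3 were above libraries 2 and 4 in both ages for both arms, as for 52 of the 375 tested miRNAs (13.9%), while 79 (21.1%) had the opposite order. The meaning of a number is not in the labels, and the part of the numbers in the age difference was not tested beyond the values within them. Within same-numbered libraries, miR-342-5p was higher in the neonatal one in 4 of 4 pairs, by 0.33 to 0.76 on the log2 scale. miR-342-3p was lower in the neonatal one in 4 of 4 pairs, at -0.32 to -1.02. Any pairing would give this order for miR-342-3p, since its groups did not overlap in CPM, so nothing is read from that count. The count for miR-342-5p uses the levels for which the arm was chosen and a pairing that the labels do not give. Nothing is read from it either. In libraries 1 and 3 alone the log2 fold change was 0.50 for 5p and -0.79 for 3p, and in libraries 2 and 4 alone it was 0.55 and -0.50.

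The ratio of the arms needs no scaling between libraries, because both counts come from the same library. The 5p arm made up 41.0%, 38.5%, 39.0% and 33.3% of the hairpin's counts in neonatal libraries 1 to 4, against 20.7%, 22.9%, 22.6% and 20.2% in adult libraries 1 to 4. These shares averaged 37.9% ± 3.28 in neonatal and 21.6% ± 1.32 in adult libraries (SD, n = 4 each), a difference of 16.3 percentage points. The lowest neonatal share lay above the highest adult share. Groups did not overlap in arm ratio in 41.5% of the 123 hairpins with both arms past the count filter, so nothing is read from this separation. Each share rests on 6394 to 13799 counts, and its 95% Wilson interval was 1.4 to 2.1 percentage points wide, which covers counting error only. Neonatal library 4, with an interval of 32.4% to 34.2%, was below the other neonatal libraries by more than counting error.

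**Figure D2:**
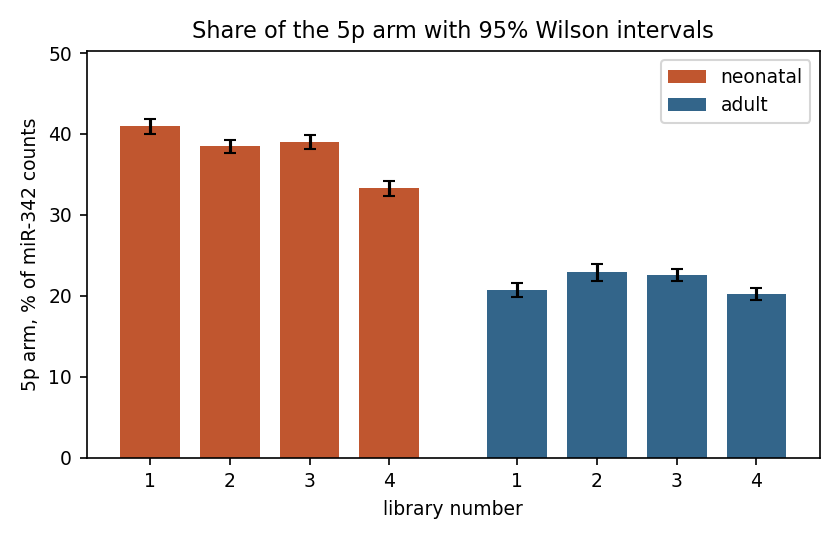
Share of the 5p arm in all miR-342 counts of each library, in percent, with bars for libraries 1 to 4 of each age and 95% Wilson intervals. Neonatal libraries are at 33.3% to 41.0% and adult libraries at 20.2% to 22.9%.

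Expressed as counts of 5p per count of 3p, the ratio was 0.614 ± 0.0825 in neonatal and 0.276 ± 0.0215 in adult libraries (SD, n = 4 each). The log2 ratio was -0.71 ± 0.20 in neonatal and -1.86 ± 0.11 in adult libraries, a difference of 1.15 ± 0.16 (SE, limma fit, neonatal minus adult). The difference within same-numbered libraries was 1.41, 1.08, 1.13 and 0.98 for numbers 1 to 4. It was 1.27 in libraries 1 and 3 alone and 1.03 in libraries 2 and 4 alone. The 3p arm remained the more abundant one at both ages, but by a smaller margin in neonatal libraries. Because ligation preferences differ between sequences, the ratio itself is not the ratio of molecules in the cell. Its difference between ages compares the same pair of sequences, but whether these preferences were alike in all libraries was not tested.

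Arm ratios differed with age in many hairpins. Of 123 hairpins with both arms past the count filter, 56 (45.5%) changed by limma at a Benjamini-Hochberg adjusted p under 0.05, and the groups did not overlap in 41.5%. miR-342 had the 23rd largest difference in size among the 123, and the 11th when ranked from the largest shift toward the 5p arm. In 87 of the 123 the difference was toward the arm with fewer counts over all libraries, as in miR-342. Of the 56 that changed, 41 did so toward the minor arm and 15 away from it. Copies of a hairpin that share both arms are counted separately here, and over 102 distinct pairs of arms these numbers were 66 of 102 in all, and 30 and 15 of the 45 that changed.

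**Figure D3:**
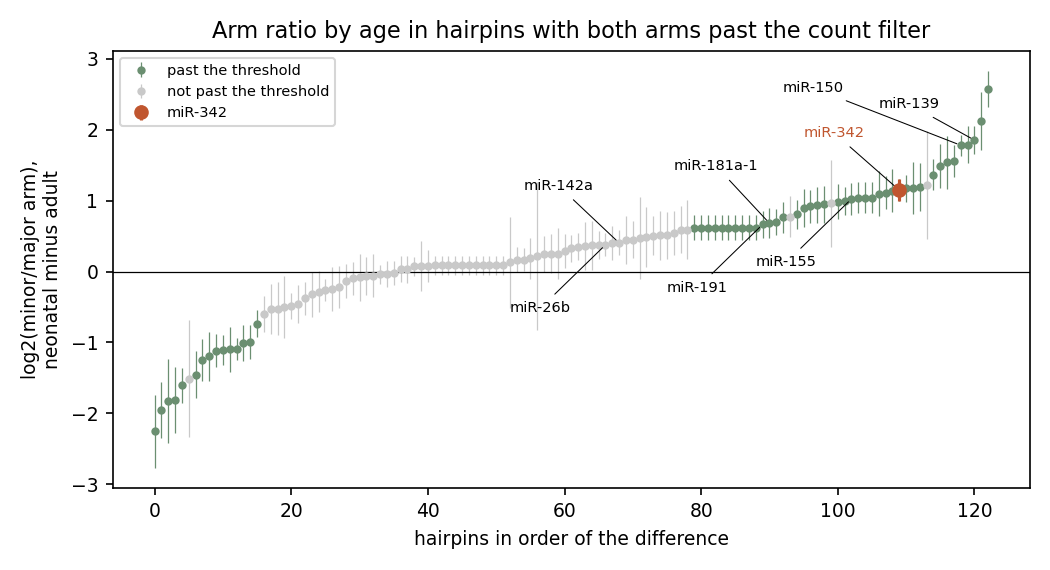
Difference in the log2 ratio of minor to major arm, neonatal minus adult, for 123 hairpins in order of size, with SE. miR-342, at 1.15, lies between miR-181a-1 (0.68) and miR-150 (1.78), and 41 of the 56 hairpins past the threshold lie above 0.

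Among 8 hairpins listed for their part in lymphocytes, miR-146a could not be compared, since its 3p arm was too rare. In the other 7 the 3p arm was the minor one, and its mean share was higher in neonatal libraries in each. In 5 of them the change passed the threshold, where 33.3% of all 123 hairpins changed toward the minor arm and 45.5% in either direction. The list was chosen with earlier results of these data known, so nothing is read from this number. miR-150-3p, the minor arm of the main miRNA of mature lymphocytes, made up 4.60% ± 0.328 of neonatal and 1.39% ± 0.173 of adult counts of its hairpin. miR-139-3p made up 17.4% ± 2.46 of neonatal and 5.55% ± 1.00 of adult counts (SD, n = 4 each). The log2 ratio of 5p over 3p changed by -1.78 ± 0.15 for miR-150 and by -1.85 ± 0.20 for miR-139 (SE, limma adjusted p of 4.98e-05 and 0.000204). miR-155, miR-181a-1 and miR-191 changed as well, at -1.02, -0.68 and -0.66 (limma adjusted p of 0.00627, 0.0232 and 0.0151).

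miR-181a-1 lost its call without neonatal library 1, neonatal library 3 or adult library 4 (limma adjusted p of 0.0532, 0.0570 and 0.0602), with all hairpins that had a count, and in libraries 1 and 3 alone (0.221 at most). miR-155 and miR-191 kept their calls whichever single library was left out. miR-155 lost its call in libraries 1 and 3 and in libraries 2 and 4 alone, and miR-191 in libraries 1 and 3 alone. miR-142a (-0.40 ± 0.18, limma adjusted p = 0.0953) and miR-26b (-0.38 ± 0.16, adjusted p = 0.0881) did not pass. The sign of miR-26b turned with an offset for GC content.

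The hairpins with differences nearest to that of miR-342, on the same scale of 5p over 3p, were miR-27b (1.10 ± 0.31), let-7f-2 (1.11 ± 0.21) and miR-130b (1.12 ± 0.23) just below it. Just above were miR-23a (1.18 ± 0.37), miR-350 (1.20 ± 0.35) and miR-27a (1.37 ± 0.22), and all 6 passed by limma (adjusted p of 0.00159 to 0.0240). In miR-27b, miR-23a and miR-27a the 5p arm is the minor one, as in miR-342, while in let-7f-2, miR-130b and miR-350 it is the major one. Their arms were far less even than those of miR-342 in most cases, with a minor arm of 0.313% of neonatal and 0.147% of adult counts in miR-27b and of 6.67% and 2.66% in miR-27a. miR-350 and miR-23a rest on minor arms with as few as 5 and 3 counts in a library. miR-23a lost its call without neonatal library 2 or 3 or adult library 1 or 2 (limma adjusted p of 0.0592 to 0.0791), and miR-350 without neonatal library 1 or adult library 1 or 2 (0.0507 to 0.0532). Both also lost it with all hairpins that had a count and in libraries 1 and 3 alone, miR-23a in libraries 2 and 4 alone, and miR-350 with the offset for GC content (limma adjusted p of 0.199 at most for miR-23a and 0.284 at most for miR-350). The call of miR-27b was lost with all hairpins that had a count and in libraries 1 and 3 alone, and that of let-7f-2 in libraries 2 and 4 alone.

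The miRNAs closest in pattern to each arm of miR-342 across the 8 libraries were different ones. Likeness was the root mean square difference of log2 CPM, each miRNA centred on its mean, over 158 other miRNAs with a mean of at least 100 CPM. Closest to miR-342-3p were miR-28a-3p (0.11), let-7e-5p (0.16), miR-320-3p (0.18), miR-191-5p (0.18) and miR-92a-3p (0.20), against a median of 0.60 over all compared. Closest to miR-342-5p were miR-1198-5p (0.17), miR-150-3p (0.19), miR-25-5p (0.19), miR-328-3p (0.20) and miR-211-5p (0.21), against a median of 0.69. The arms themselves were 0.59 apart, so that miR-342-3p came 67th in likeness to miR-342-5p. This likeness includes the age difference for which the arms were chosen. All the miRNAs named here but miR-328-3p and miR-191-5p also had libraries 1 and 3 above 2 and 4 in both ages. That order held for both arms and for 13.9% of all tested miRNAs, and its part in the likeness was not tested. The set near miR-342-5p includes miR-150-3p, a minor arm of another lymphocyte hairpin, which stood at 2622 ± 289 CPM in neonatal libraries against 1964 ± 494 CPM in adult ones (SD, n = 4 each).

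miR-342 can be set beside other miRNAs that are abundant or regulated in lymphocytes. In a list of 18, all tested, 14 fell in neonatal libraries and none rose by edgeR's quasi-likelihood test. Over all tested miRNAs 34.1% fell and 29.1% rose (63.2% in all). The list was chosen with earlier results of these data known, so nothing is read from its distance to these shares. At an unadjusted p under 0.05 there was 1 higher and 14 lower, and DESeq2 called 2 higher and 13 lower. The list's median log2 fold change was -1.13, against -0.05 over all tested miRNAs. With library totals 9 fell and 3 rose. With TMM 4 did not pass, among them miR-181a-5p (0.21 ± 0.14, edgeR adjusted p = 0.193), which rose with library totals (0.84, edgeR adjusted p = 5.57e-05). Among the 14, the call of miR-30c-5p (-0.34, edgeR adjusted p = 0.034) changed in 14 of 22 alternatives, and its sign turned with library totals.

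Among the falls, 3 well known lymphocyte miRNAs, taken as examples, had log2 fold changes farther below 0 than that of miR-342-3p. miR-150-5p, which restrains the transcription factor Myb, averaged 54314 ± 2743 CPM in neonatal libraries against 140507 ± 37921 CPM in adult ones (log2 fold change -1.37 ± 0.18, edgeR adjusted p = 3.07e-05). It shared with both arms of miR-342 the order of libraries 1 and 3 above 2 and 4 in each age. miR-139-5p (-2.11 ± 0.14) and miR-146a-5p (-2.86 ± 0.15), which dampens NF-kB activity, fell too, with edgeR adjusted p of 1.11e-07 and 1.61e-08. miR-191-5p, among the miRNAs closest to miR-342-3p, fell by 0.71 on the log2 scale (SE 0.13, edgeR adjusted p = 0.000405), and with library totals it stood at -0.07 (adjusted p = 0.619).

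The log2 fold change of miR-150-3p, 0.42 ± 0.18, was not past the threshold (edgeR adjusted p = 0.0653). It passed as higher in 15 of 22 alternatives, among them DESeq2, limma-voom, each other scaling and the replicate number as a block (edgeR adjusted p = 0.00443). With library totals its log2 fold change was 1.06. Of the fits without a single library it passed in those without neonatal library 2 or 4 or adult library 1 or 3 (edgeR adjusted p of 0.0161 to 0.05). Its adjusted p ranged from 0.000475 to 0.804 over the alternatives, the highest with the offset for GC content. The block also brought miR-92a-3p past the threshold (-0.40, edgeR adjusted p = 0.00574, against -0.41 and 0.0853 without it), and its sign turned to 0.23 with library totals.

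By mean CPM miR-342-3p ranked 39th in neonatal and 35th in adult libraries among the 375 tested miRNAs, and miR-342-5p ranked 51st and 67th. Ligation preferences enter such ranks within a library. miRNA markers can check that the samples hold lymphocytes but not that they are CD8+ T cells. The 4 miRNAs listed as lymphocyte markers (miR-150-5p, both arms of miR-142a and miR-181a-5p) summed to 70169 to 72995 CPM in neonatal libraries against 140036 to 203289 CPM in adult ones. Most of the sum was miR-150-5p, at 51304 to 57693 CPM in neonatal and 103677 to 184322 CPM in adult libraries. Of the 4, 3 fell (2 fell and 1 rose with library totals). Over all tested miRNAs 34.1% fell and 29.1% rose. Erythroid markers summed to 308 to 775 CPM in neonatal libraries against 120 to 252 CPM in adult ones (3 of 5 tested, all 3 higher), and endothelial ones to 125 to 160 and 46.6 to 77.0 CPM (both higher). The liver marker miR-122-5p was at 745 to 1591 CPM in neonatal libraries against 245 to 390 CPM in adult ones (higher), and epithelial markers at 1851 to 2157 and 2662 to 2932 CPM (2 of 5 lower, and with library totals 2 lower and 3 higher). The 2 myeloid markers, arms of miR-223, were too rare to test, with 3.49 to 8.54 CPM in neonatal libraries against 2.85 to 9.10 CPM in adult ones, and no marker was at 0 in all libraries. The part of other cells in the levels of miR-342 was not tested.

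**Figure D4:**
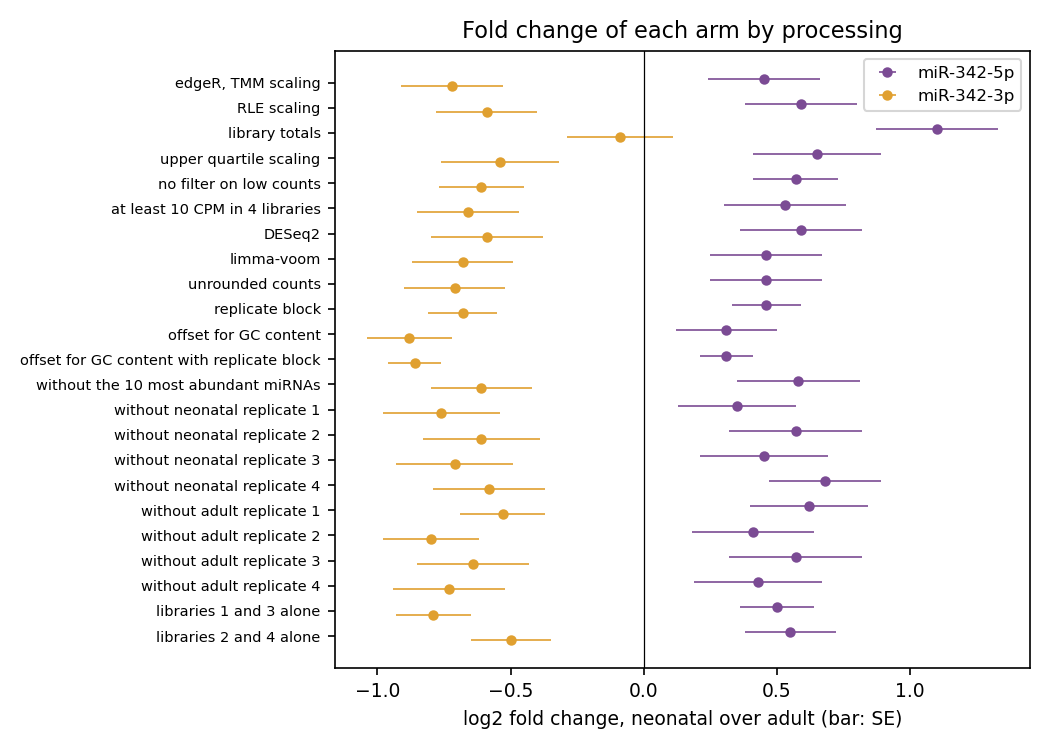
Log2 fold change of miR-342-5p and miR-342-3p, neonatal over adult, with SE, in the edgeR fit with TMM scaling and in 22 alternatives. The 5p arm lies between 0.31 and 1.10 and the 3p arm between -0.88 and -0.09, with library totals farthest to the right for both.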

How the data were processed

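The values are estimated counts as deposited by the authors, without normalization, for each mature miRNA on each precursor. Of the non-zero values 71.4% were whole within 0.001. The build was mm10, per the submitters' processing notes. Aligner, counter and miRNA annotation were not given in the sources used here, so shared reads may have been divided between near-identical miRNAs. Both miR-342 arms had whole counts. Libraries were made with the NEBNext small RNA kit with inserts of about 18-35 bases, per the labels' protocols.

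Counts were summed over precursors and rounded. miRNAs were kept by filterByExpr (minimum count 10, minimum total 15) and fitted with edgeR 4.0.16 in R 4.3.3 (quasi-likelihood, TMM, robust), with age as the only term and Benjamini-Hochberg adjustment at 0.05. An SE is the absolute log2 fold change over the square root of F. The arm ratio was taken on the log2 scale with 0.5 added to each count and fitted with limma 3.58.1 with a trend. Both fits were tested on simulated counts. Sequences and positions came from RefSeq (GRCm38.p6) and GENCODE M21, and folds from ViennaRNA 2.7.2. A RefSeq sequence was found for 314 of the 375 tested miRNAs (83.7%).

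Replicate numbers 1 to 4 in the labels entered only in an alternative fit, as a block. The labels do not say that the numbers pair libraries. Deviations from the group means correlated at r = 0.256 to 0.415 across miRNAs between same-numbered libraries of the 2 ages. Unlike-numbered ones reached 0.482, above every same-numbered pair, and libraries 1 and 3, and 2 and 4, were alike (r of 0.107 or more). Other unlike-numbered pairs were at -0.11 or lower. The data thus show a likeness of odd and of even numbers, and do not show pairing by single number. The members, lists and tests were chosen with earlier results of these data known. Named were the arms, the 5 miRNAs most like each, the 3 hairpins nearest in arm ratio on each side, listed hairpins, list members as examples, miRNAs that share a seed, and those within 1000000 bases. The count of shifts toward the minor arm was added after the values were seen.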

Additional observations from a re-analysis of the deposited data

How the results depend on the processing

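The count of miRNAs that changed with age (237) was 213 to 287 over 22 alternatives (220 to 253 without single libraries). The lymphocyte count in either direction (14, all lower) was 12 to 17, and 13 to 15 without single libraries. The number of listed miRNAs that fell was lowest with library totals (9) and at most 15, as with the replicate number as a block. Of all miRNAs that changed with age, 73.2% were higher with library totals, against 46.0% with TMM and 56.4% with no filter on low counts. Of the listed lymphocyte miRNAs that changed, 25.0% were higher with library totals. The 56 hairpins with a changed arm ratio became 27 in libraries 1 and 3 alone and 49 in libraries 2 and 4 alone, 2 alternatives chosen after seeing the data that leave 2 libraries per group, and were 52 to 59 without single libraries. With the replicate number as a block, 265 miRNAs, 16 listed miRNAs and 62 hairpins passed, miR-342-5p stood at 0.46, miR-342-3p at -0.68 and the arm ratio at 1.15. Library totals moved miR-342-5p to 1.10 and miR-342-3p to -0.09. Without single libraries the values were 0.35 to 0.68, -0.80 to -0.53 and, for the ratio, 1.09 to 1.24. With an offset for GC content the arms stood at 0.31 and -0.88. The miR-342 arm ratio difference was 1.03 to 1.27 in all 20 alternatives. Several of these could hardly move it. Its counts are whole and large beside any pseudocount, and the choice of hairpins or trend leaves its value unchanged. Counts summed over a group give no test across hairpins. At the depth of these arms, counting error is small beside the spread between libraries.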

Other observations

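The nearest annotated miRNA hairpin to miR-342 is Mir345, 178255 bases away on chromosome 12, and the next is Mir770, 904974 bases away. Within 1000000 bases lie 20 hairpins with 38 mature arms, of which 4 had enough counts to test. All 4 were higher in neonatal libraries by edgeR's quasi-likelihood test, where 29.1% of all tested miRNAs were higher. The hairpins Mir493, Mir433 and Mir127 lie close together, 921515 to 934128 bases from miR-342, so the 4 are not separate cases. Nothing is read from their number. miR-345-3p averaged 56.9 ± 7.75 CPM in neonatal libraries against 27.5 ± 4.83 CPM in adult ones (SD, n = 4 each; log2 fold change 1.03 ± 0.20, edgeR adjusted p = 0.000739). miR-127-3p, from the imprinted Dlk1-Dio3 region, averaged 45.1 ± 12.8 CPM in neonatal libraries against 18.6 ± 5.56 CPM in adult ones (1.29 ± 0.27, edgeR adjusted p = 0.00121). miR-433-3p and miR-493-5p, at under 12 CPM in either group, changed by 1.72 and 1.06. In adult libraries they stood at 1.0 to 2.91 CPM and 1.94 to 9.1 CPM, so they passed the count filter through the neonatal libraries. For miR-433-3p the adult values are near the limit that a count of 0 allows. The call of miR-493-5p (edgeR adjusted p = 0.0281) was lost without neonatal library 3, without adult library 1, 3 or 4, at adjusted p of 0.0767 to 0.0870, and in libraries 2 and 4 alone (0.368).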
